A study of Mus musculus with 4 samples.

Results

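The genes described here are those of the mouse proteasome other than the 3 inducible immunoproteasome subunits, measured on microarrays in macrophages with and without the transcription factor Batf2. Members were all probes whose gene symbol in the deposited series table begins with Psma, Psmb, Psmc, Psmd, Psme, Psmf or Psmg, leaving out Psmb8, Psmb9 and Psmb10, and whose spots Feature Extraction marked as well above background on 1 array or more. All 86 probes with such a symbol met that condition, for 45 genes, out of 42639 probes of the whole array that met it and 18787 genes measured in all. Of the 86 probes, 85 were well above background on all 4 arrays, and the remaining one, a second and dimmer probe of Psmc3ip, on 3. By role, the members were 8 alpha and 7 beta subunits of the 20S core, 6 ATPases and 11 other subunits of the 19S cap, 4 activators, 1 inhibitor, 3 assembly chaperones of the cap, 4 assembly chaperones of the core, and Psmc3ip, a meiotic recombination cofactor that shares the prefix and is no proteasome subunit.

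The proteasome degrades proteins marked with ubiquitin. Its 20S core is a barrel of alpha and beta rings with the cutting sites on the inner face of the beta rings, and the 19S cap at either end binds, unfolds and feeds in the substrate. Activators of the PA28 and PA200 families can take the place of a cap, and in macrophages the PA28 pair Psme1 and Psme2 is known as interferon-inducible and linked to the production of peptides for antigen presentation.

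Total RNA came from bone marrow-derived macrophages, grown from femoral marrow of male C57BL/6J mice in macrophage colony-stimulating factor. The 4 groups were Batf2-/- cells given R848, a ligand of Toll-like receptor 7, at 100 ng/ml for 8 h, untreated Batf2-/- cells, wild-type cells given R848 in the same way, and untreated wild-type cells. The untreated samples are labelled 0 h, so an effect of R848 and one of 8 h more in culture cannot be told apart. Each group was 1 array on 1 shared slide. The age of the mice, how many gave marrow to a sample and how the Batf2 deletion was made are not stated in the labels. With 1 array per group no difference below has a test, and the only spread at hand is that between 10 spots of 1 probe on the same array, over 289 such probes. That spread (SD) was 0.07 on the log2 scale for a difference between 2 arrays and 0.10 for a difference between 2 responses, and it covers neither culture nor animal.

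Signals are given as multiples of the 75th percentile of the same array, and differences as log2. A signal reads across the 4 arrays for 1 gene and not from gene to gene. Where a gene had several probes, its brightest one stands for it. Batf2 itself had a signal of 0.102 in untreated Batf2-/- cells and was not well above background in Batf2-/- cells with R848, against 0.357 with R848 and 0.123 untreated in wild-type cells. With R848 it was at least 6.2-fold lower in Batf2-/- cells, and the untreated pair, at 1.21-fold lower, hardly separated the genotypes. The sources used here do not give where the Batf2 probe lies relative to the deleted part. All 8 macrophage markers were well above background on all 4 arrays. So were the measured markers of B cells (3), T cells (2), fibroblasts (3) and erythroid cells (2), so this does not single out macrophages. Markers of granulocyte precursors and of basophils and mast cells differed between the arrays. The summed signal of 5 granulocyte precursor genes was 2.31 with R848 and 6.76 untreated in Batf2-/- cells, and 20.05 with R848 and 91.1 untreated in wild-type cells, with all 5 above background on each array. For 5 basophil and mast cell genes the sums were 0.525 and 1.05 in Batf2-/- cells and 8.94 and 17.96 in wild-type cells in the same order, with 2 and 4 of the 5 above background in the Batf2-/- pair and 5 of 5 in the wild-type pair. These last 2 sets were thus lower in Batf2-/- cells and lower after R848, and their part in the differences below was not tested. In such bulk RNA, a change in the share of a cell type and a change of RNA per cell cannot be told apart.

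After R848 most proteasome genes were moderately higher in both genotypes. In Batf2-/- cells 39 of the 45 genes were higher with R848 than without, where 47.1% of all genes were, and in wild-type cells 37 of 45, where 49.1% were. The median log2 difference of the members was 0.55 in Batf2-/- cells and 0.57 in wild-type cells, which is 1.46-fold and 1.49-fold, while the median over all genes was -0.03 and -0.01. At least 1.5-fold higher were 20 members in Batf2-/- cells, against 14.4% of all genes, and 22 members in wild-type cells, against 12.7%. At least 2-fold higher were 6 members in Batf2-/- cells and 4 in wild-type cells, where 7.27% and 5.84% of all genes were. Of the 8756 genes with a mean signal at or above the 75th percentile, 14.8% in Batf2-/- cells and 14.2% in wild-type cells were at least 1.5-fold higher, beside 19 and 22 of the 40 members among them. The excess of members over the share of all genes was thus larger at 1.5-fold than at 2-fold. None of the 45 was 2-fold lower in either genotype, where 5.64% of all genes in Batf2-/- cells and 6.4% in wild-type cells were. At 1.5-fold, none was lower in Batf2-/- cells (14.1% of all genes) and 2 were in wild-type cells (15.1%), Psma8 and Psmc3ip.

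**Figure D1:**
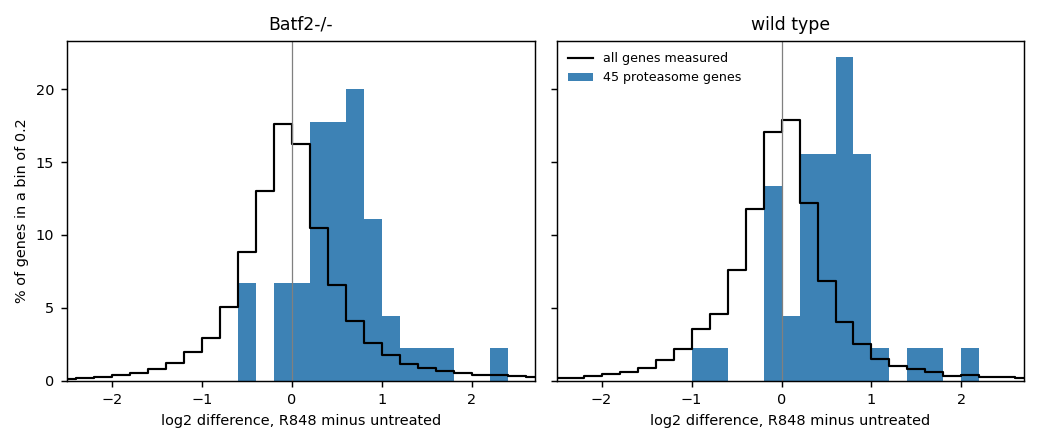
Distribution of the R848 response (log2 difference, R848 minus untreated, horizontal axis) as a percentage of genes per bin of 0.2 (vertical axis), in Batf2-/- cells (left) and wild-type cells (right). Bars are the 45 proteasome genes and the line all genes measured. The bars sit to the right of the line in both panels, with medians of 0.55 and 0.57 against -0.03 and -0.01.

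The 4 genes that were at least 2-fold higher in both genotypes, Psme2b, Psmd10, Psma6 and Psma5, belong to 3 different roles. Of all genes measured in both genotypes, 4.23% met that condition. The 2 further members past 2-fold in Batf2-/- cells were the cap subunits Psmc2 and Psmd11.

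Psme2b had the largest R848 response of the set. Its signal was 63.7 with R848 and 13.5 untreated in Batf2-/- cells, and 62.6 with R848 and 15.5 untreated in wild-type cells. The R848 difference was 4.73-fold in Batf2-/- cells and 4.05-fold in wild-type cells. The name Psme2b is that of a close mouse copy of Psme2, the beta chain of PA28, and no probe in the deposited table was named Psme2, so the signal cannot be assigned to one copy or the other. A second probe of the same name gave log2 differences of 2.15 in Batf2-/- cells and 2.07 in wild-type cells, near the 2.24 and 2.02 of the brighter probe.

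Psmd10, or gankyrin, is a chaperone that holds an ATPase during assembly of the cap. Its signal was 10.2 with R848 and 2.99 untreated in Batf2-/- cells, and 8.66 with R848 and 2.76 untreated in wild-type cells. The 2 R848 arrays were 3.4-fold (Batf2-/-) and 3.14-fold (wild type) above the untreated array of the same genotype, and it had a single probe.

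Psma6 and Psma5 are alpha subunits, which form the outer rings of the core and its gate. The signal of Psma6 was 48.2 with R848 and 16.6 untreated in Batf2-/- cells, and 57.9 with R848 and 20.7 untreated in wild-type cells. That of Psma5 was 30.1 with R848 and 13.5 untreated in Batf2-/- cells, and 26.5 with R848 and 13.1 untreated in wild-type cells. The R848 differences of Psma6 and Psma5 were 2.89-fold and 2.24-fold in Batf2-/- cells and 2.8-fold and 2.03-fold in wild-type cells. The second probe of Psma6 gave 1.69 and 1.78 on the log2 scale, beside 1.53 and 1.48 for the brighter one.

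The promoter sequences of Psma5, Psma6 and Psmd10 are shown because these genes were at least 2-fold higher after R848 in both genotypes, and those of Psmb5 and Psmb6 because they carry the letters TGACNNNGC, the core of the antioxidant response element that NFE2L1 and NFE2L2 are known to bind. Each is the 250 bases before an annotated start in RefSeq (GRCm38.p6), written 5′ to 3′ on the strand of the gene, and Psma6 has 2 annotated starts. The promoter of Psme2b is left out because its signal cannot be assigned to that copy. Capitals mark matches, on either strand, to TGACNNNGC, to an interferon-stimulated response element (GAAA, any 2 bases, GAAA), to TTCNNNGAA (a STAT site) and to CCAAT.
Psma5, chr3:108256676-108256925, plus strand: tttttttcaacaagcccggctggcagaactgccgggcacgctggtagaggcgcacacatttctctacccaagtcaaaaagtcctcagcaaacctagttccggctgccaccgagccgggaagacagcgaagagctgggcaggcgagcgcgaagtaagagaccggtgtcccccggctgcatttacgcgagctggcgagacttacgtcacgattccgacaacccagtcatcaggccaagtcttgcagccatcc
Psmb6, chr11:70525107-70525356, plus strand: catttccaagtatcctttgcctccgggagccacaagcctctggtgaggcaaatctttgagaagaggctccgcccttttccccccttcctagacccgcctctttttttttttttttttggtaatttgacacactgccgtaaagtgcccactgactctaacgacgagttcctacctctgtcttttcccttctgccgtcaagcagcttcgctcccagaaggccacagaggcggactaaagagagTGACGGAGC
Psma6, upstream start, chr12:55383972-55384221, plus strand: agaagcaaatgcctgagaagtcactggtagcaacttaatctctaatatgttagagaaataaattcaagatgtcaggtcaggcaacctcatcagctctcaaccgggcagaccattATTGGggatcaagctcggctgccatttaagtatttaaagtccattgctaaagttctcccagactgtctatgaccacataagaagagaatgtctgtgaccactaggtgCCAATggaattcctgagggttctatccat
Psma6, downstream start, chr12:55398575-55398824, plus strand: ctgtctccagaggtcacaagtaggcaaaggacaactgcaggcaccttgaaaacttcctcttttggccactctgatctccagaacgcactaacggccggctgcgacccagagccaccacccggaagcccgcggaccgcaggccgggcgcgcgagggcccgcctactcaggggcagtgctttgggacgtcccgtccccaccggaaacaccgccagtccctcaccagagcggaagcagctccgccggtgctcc
Psmb5, chr14:54617996-54618245, minus strand: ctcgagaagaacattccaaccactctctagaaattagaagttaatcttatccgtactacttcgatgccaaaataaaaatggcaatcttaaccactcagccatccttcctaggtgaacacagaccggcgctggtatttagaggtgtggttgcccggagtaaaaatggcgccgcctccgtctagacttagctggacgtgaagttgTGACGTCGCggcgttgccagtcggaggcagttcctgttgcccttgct
Psmd10, chrX:140956712-140956961, minus strand: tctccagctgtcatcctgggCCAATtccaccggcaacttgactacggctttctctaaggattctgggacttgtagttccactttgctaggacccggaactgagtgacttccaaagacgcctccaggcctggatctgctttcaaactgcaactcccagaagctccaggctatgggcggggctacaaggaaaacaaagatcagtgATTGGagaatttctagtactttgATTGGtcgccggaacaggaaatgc

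In these windows Psma5 and the downstream start of Psma6 held none of the 4 marked motifs, the upstream start of Psma6 held CCAAT letters at 2 places and Psmd10 at 3. Psmb6 held TGACNNNGC in the last 9 bases before its start, and Psmb5 held it 47 bases before. Promoter windows were found for 37 of the 45 member genes. TGACNNNGC was in 5 of the 37 (13.5%), where 3112 of 27025 genes with a window had it. Those 5 genes, Psmb5, Psmb6, Psmc6, Psmd12 and Psmd9, had R848 differences between -0.46 and 0.82 in Batf2-/- cells and between -0.14 and 0.89 in wild-type cells. The interferon-stimulated response element letters were in 3 of 37 (8.11%, against 3.46% of all), in Psmb3, Psmd4 and Psmd9. TTCNNNGAA was in 1, Psmg1 (2.7% against 8.13%). The outline of a nuclear factor kappa B site (GGG, any 5 bases, CC) was in 21 (56.8% against 48.7%) and is not marked above, and CCAAT in 13 (35.1% against 37.5%). Among the windows shown, the kappa B outline was in those of Psma5, Psmb6 and the downstream start of Psma6. Psme2b is counted among the 37 and the 21 at its own locus, although its signal cannot be assigned to that copy. The 5 free letters of that outline can hold a CCAAT match, and the other motifs contain none of each other. These are matches of letters and were not tested as sites.

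The 20S core was higher after R848 in nearly every subunit. Of the 15 core genes, 15 were higher with R848 in Batf2-/- cells (47.1% of all genes) and 12 in wild-type cells (49.1%), and the exceptions in wild-type cells were Psma1, Psma8 and Psmb1. The median log2 difference of the core was 0.56 in Batf2-/- cells and 0.60 in wild-type cells. Besides Psma5 and Psma6, the alpha subunits Psma3 and Psma4 were 1.75-fold and 1.65-fold higher in Batf2-/- cells and 1.67-fold and 1.4-fold in wild-type cells. The other 3 probes of Psma4 gave log2 differences between 0.71 and 0.80 in Batf2-/- cells and between 0.81 and 0.92 in wild-type cells, so a larger response in Batf2-/- cells was seen on its brightest probe only. Psma7 was 1.48-fold and 1.52-fold higher, and Psma2 1.43-fold and 1.43-fold, in Batf2-/- and wild-type cells in that order. Psma1 had log2 differences of 0.11 and -0.08, of opposite sign and hardly beyond the spread between spots.

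Psma8 departed from the other alpha subunits. This gene encodes a variant of the subunit made by Psma7 and is known from the testis. Its signal was 0.269 with R848 and 0.225 untreated in Batf2-/- cells, and 0.228 with R848 and 0.427 untreated in wild-type cells. The untreated wild-type array was thus the high one and the other 3 lay close together. All 4 signals were below the 75th percentile of their arrays. The R848 difference was 0.26 on the log2 scale in Batf2-/- cells and -0.91 in wild-type cells, the largest departure between genotypes in the set. It rests on that 1 array.

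The 3 catalytic beta subunits of the standard core all had higher signals after R848. Psmb5, which carries the chymotrypsin-like site, had 10.9 with R848 and 6.19 untreated in Batf2-/- cells, and 10.02 with R848 and 5.43 untreated in wild-type cells. Psmb6, the caspase-like subunit, had 25.8 with R848 and 18.5 untreated in Batf2-/- cells, and 24.03 with R848 and 13.6 untreated in wild-type cells. Psmb7, the trypsin-like subunit, had 17.3 with R848 and 13.6 untreated in Batf2-/- cells, and 18.1 with R848 and 14.8 untreated in wild-type cells. In each of the 3, both R848 arrays lay above both untreated arrays. How many of all genes had that order was not counted, and 34.3% of all genes were higher after R848 in both genotypes. The R848 differences in Batf2-/- cells were 1.77-fold for Psmb5, 1.4-fold for Psmb6 and 1.28-fold for Psmb7, and in wild-type cells 1.85-fold, 1.77-fold and 1.22-fold in the same order. The smaller Psmb6 response in Batf2-/- cells went with a higher untreated signal there, and the 2 R848 arrays were within 1.07-fold of each other.

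Those 3 subunits are the ones that Psmb8, Psmb9 and Psmb10 replace in the immunoproteasome. Psmb8, which takes the place of Psmb5, was 2.19-fold higher after R848 in Batf2-/- cells and 1.68-fold in wild-type cells. Psmb9, in the place of Psmb6, was 2.12-fold and 1.15-fold higher, and Psmb10, in that of Psmb7, 3.39-fold and 2.34-fold, again in Batf2-/- and then wild-type cells. The fold was larger for the inducible than for the standard subunit in all 3 pairs in Batf2-/- cells, and in wild-type cells in 1 pair only, Psmb10 and Psmb7. Untreated signals of Psmb8, Psmb9 and Psmb10 were 6.22, 8.79 and 4.07 in Batf2-/- cells and 9.64, 15.5 and 4.62 in wild-type cells. With R848 they were 13.6, 18.7 and 13.8 in Batf2-/- cells and 16.2, 17.9 and 10.8 in wild-type cells. The larger Psmb8 and Psmb9 folds in Batf2-/- cells thus went with lower untreated signals there. Among the structural beta subunits, Psmb3 was 1.81-fold (Batf2-/-) and 1.75-fold (wild type) higher after R848, and Psmb4 1.67-fold and 1.58-fold. Psmb2 was 1.47-fold and 1.18-fold higher, and Psmb1 had log2 differences of 0.11 and -0.06.

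**Figure D2:**
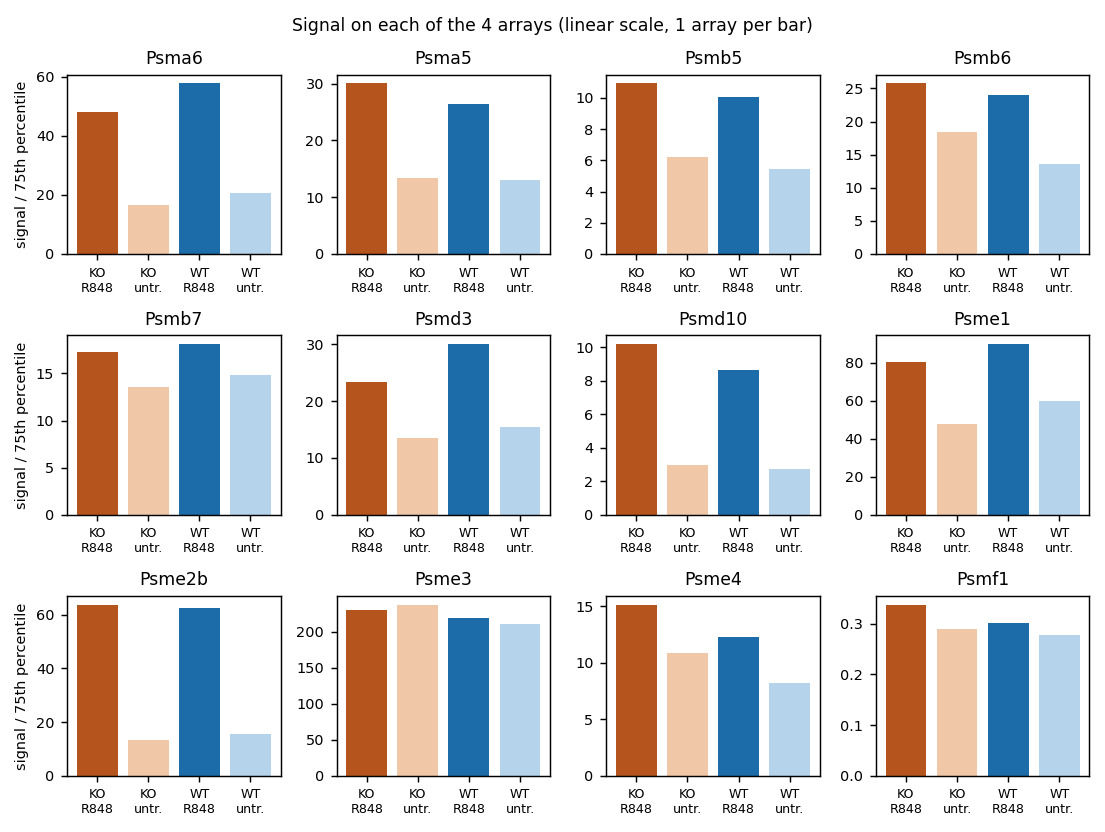
Signal of 12 proteasome genes on each of the 4 arrays, as multiples of that array's 75th percentile (vertical axis, linear from 0, a scale of its own per gene); each bar is 1 array, with KO for Batf2-/-, WT for wild type and untr. for untreated. Psma6, Psma5, Psmd10 and Psme2b show both R848 bars at least 2-fold above the untreated bars of the same genotype, while the 4 bars of Psme3 lie between 211 and 238.

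In the 19S cap, 16 of 17 genes were higher after R848 in each genotype, where 47.1% of all genes in Batf2-/- cells and 49.1% in wild-type cells were, and the exception in both was Psmd8. The median log2 difference of the cap was 0.50 in Batf2-/- cells and 0.65 in wild-type cells, and core and cap medians lay within 0.07 of each other in Batf2-/- cells and 0.04 in wild-type cells. At least 1.5-fold higher were 7 cap genes in Batf2-/- cells (14.4% of all genes) and 11 in wild-type cells (12.7%).

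The 6 ATPases form the ring that unfolds substrates. Psmc2 was the most responsive of them in Batf2-/- cells, with signals of 24.4 with R848 and 10.99 untreated in Batf2-/- cells, and 18.2 with R848 and 11.8 untreated in wild-type cells, which is 2.22-fold and 1.55-fold higher after R848 in Batf2-/- and wild-type cells. A second, much dimmer Psmc2 probe gave 0.41 in Batf2-/- cells and 0.51 in wild-type cells on the log2 scale and so did not show the larger response in Batf2-/- cells. For Psmc1 the R848 differences were 1.61-fold and 1.62-fold, for Psmc5 1.71-fold and 1.43-fold, and for Psmc6 1.18-fold and 1.52-fold, in the same order. Psmc3 and Psmc4 stayed below 1.5-fold in both genotypes, at 1.21-fold and 1.25-fold in Batf2-/- cells and 1.28-fold and 1.32-fold in wild-type cells.

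Among the non-ATPase subunits, Psmd11, a scaffold subunit of the lid, had signals of 4.29 with R848 and 1.82 untreated in Batf2-/- cells, and 3.53 with R848 and 1.91 untreated in wild-type cells. That is 2.35-fold higher after R848 in Batf2-/- cells and 1.85-fold in wild-type cells. Psmd3, another lid scaffold, had 23.4 with R848 and 13.5 untreated in Batf2-/- cells, and 30.1 with R848 and 15.5 untreated in wild-type cells, and was 1.73-fold and 1.94-fold higher after R848 in that order of genotypes. The higher R848 signal was in Batf2-/- cells for Psmd11 and in wild-type cells for Psmd3.

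Further lid subunits moved by similar steps. Psmd7 was 1.71-fold higher after R848 in Batf2-/- cells and 1.91-fold in wild-type cells. Psmd14, the deubiquitinase of the lid, was 1.54-fold and 1.75-fold higher, and Psmd6 1.29-fold and 1.67-fold. Psmd13 was 1.37-fold and 1.57-fold higher, and Psmd12 1.41-fold and 1.18-fold. On these brightest probes all but Psmd12 had the larger response in wild-type cells. The second probes of Psmd7 (0.85 in Batf2-/- and 0.72 in wild-type cells, log2) and Psmd13 (0.67 and 0.34) had the larger one in Batf2-/- cells. The ubiquitin receptor Psmd4 was 1.46-fold higher in Batf2-/- cells and 1.66-fold in wild-type cells, and the scaffolds Psmd1 and Psmd2 were 1.28-fold and 1.02-fold higher in Batf2-/- cells and 1.57-fold and 1.19-fold in wild-type cells. The lid subunit Psmd8 went the other way, with 1.39 with R848 and 2.07 untreated in Batf2-/- cells, and 1.26 with R848 and 1.39 untreated in wild-type cells. Its R848 difference was -0.57 in Batf2-/- cells and -0.15 in wild-type cells on the log2 scale, and the untreated Batf2-/- array was the high one.

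**Figure D3:**
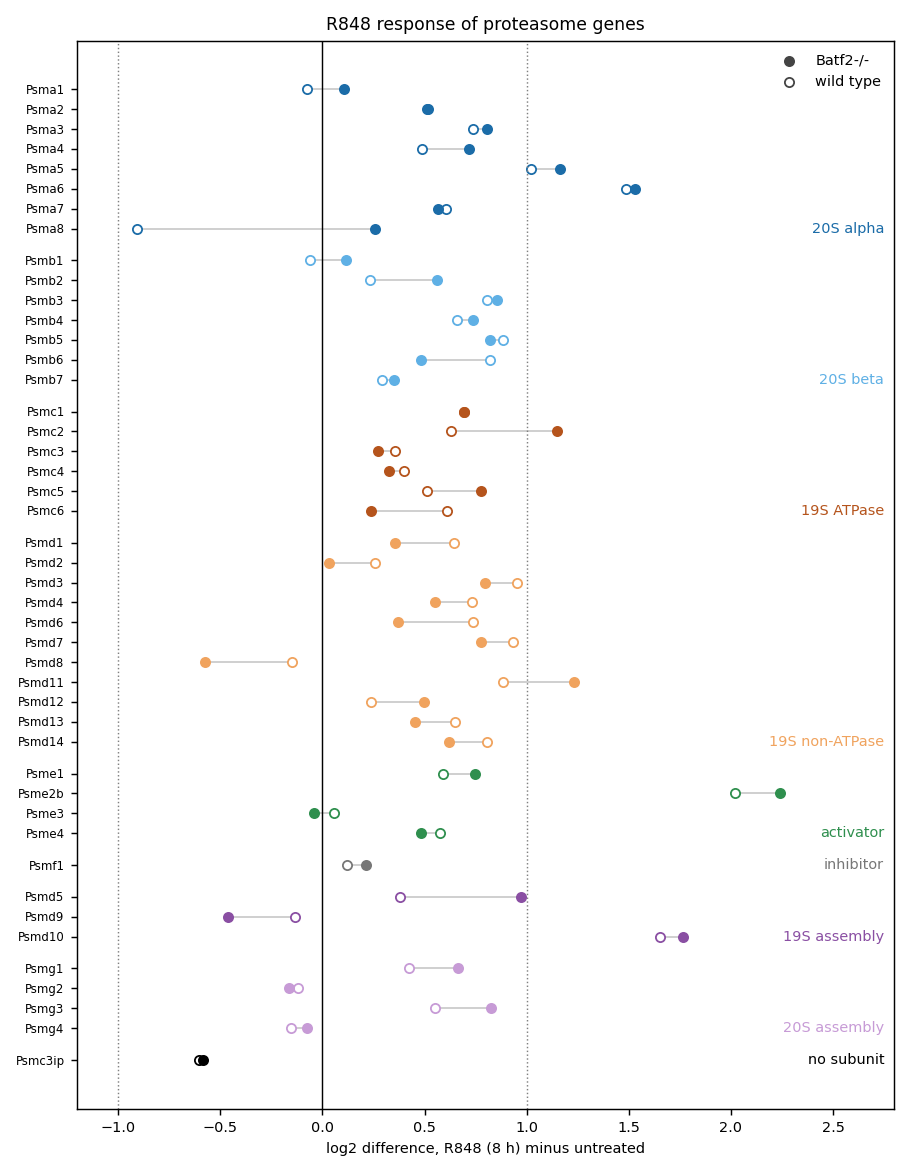
R848 response of each of the 45 proteasome genes (log2 difference, R848 minus untreated, horizontal axis), grouped by role; filled circles are Batf2-/- cells, open circles wild-type cells, each from 1 pair of arrays, and dotted lines mark 2-fold. Most circles lie between 0 and 1, Psme2b, Psmd10, Psma6 and Psma5 lie beyond 1 in both genotypes, and Psma8 has the widest gap between its circles.

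The activators differed among themselves. Psme1, the alpha chain of PA28, had signals of 80.2 with R848 and 47.8 untreated in Batf2-/- cells, and 89.8 with R848 and 59.7 untreated in wild-type cells. It was 1.68-fold higher after R848 in Batf2-/- cells and 1.5-fold in wild-type cells, a smaller step than that of Psme2b, the probe of its partner chain. Psme3, or PA28 gamma, a nuclear activator that is not part of the interferon-inducible pair, had 231 with R848 and 238 untreated in Batf2-/- cells, and 219.5 with R848 and 211 untreated in wild-type cells. Its 4 arrays lay within a narrow band and the R848 differences were -0.04 and 0.06 on the log2 scale, within the spread between spots. A second, far dimmer Psme3 probe gave 0.30 and 0.52, so the probes of this gene do not show 1 response. Psme4, or PA200, had 15.1 with R848 and 10.8 untreated in Batf2-/- cells, and 12.3 with R848 and 8.25 untreated in wild-type cells, and was 1.4-fold and 1.49-fold higher after R848 in Batf2-/- and wild-type cells. Psmf1, the inhibitor PI31, was dim on all 4 arrays, with 0.338 with R848 and 0.291 untreated in Batf2-/- cells, and 0.302 with R848 and 0.277 untreated in wild-type cells, and log2 differences of 0.22 and 0.12.

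The assembly chaperones were mixed. Beside Psmd10, the cap chaperone Psmd5 had signals of 4.17 with R848 and 2.13 untreated in Batf2-/- cells, and 2.96 with R848 and 2.27 untreated in wild-type cells. It was 1.96-fold higher after R848 in Batf2-/- cells and 1.3-fold in wild-type cells, and the high array was Batf2-/- with R848. Psmd9, the third cap chaperone, had log2 differences of -0.46 and -0.14, the opposite direction to the other 2. Of the core chaperones, Psmg1 was 1.58-fold and 1.34-fold higher after R848 and Psmg3 1.77-fold and 1.46-fold, while Psmg2 (-0.17 and -0.12 on the log2 scale) and Psmg4 (-0.08 and -0.15) were slightly lower, always in Batf2-/- and then wild-type cells. Psmc3ip had 0.0848 with R848 and 0.127 untreated in Batf2-/- cells, and 0.131 with R848 and 0.20 untreated in wild-type cells, lower after R848 in both genotypes and lower in Batf2-/- cells under both conditions.

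The responses of the 2 genotypes resembled each other. They rest on separate pairs of arrays of the same slide. Over the 45 genes their correlation was 0.86 (Pearson) and 0.79 (Spearman), and over all 18373 genes measured in both it was 0.78 and 0.67. These are descriptions across genes, which are not independent replicates. Of the 45, 36 were higher after R848 in both genotypes (34.3% of all genes), 5 were lower in both (38.9% of all genes, the 5 being Psmd8, Psmd9, Psmg2, Psmg4 and Psmc3ip) and 4 had opposite signs (Psma1, Psma8, Psmb1 and Psme3). At least 1.5-fold higher in both were 15 members, against 8.4% of all genes, and in 1 genotype or both 27, against 17.8%.

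**Figure D4:**
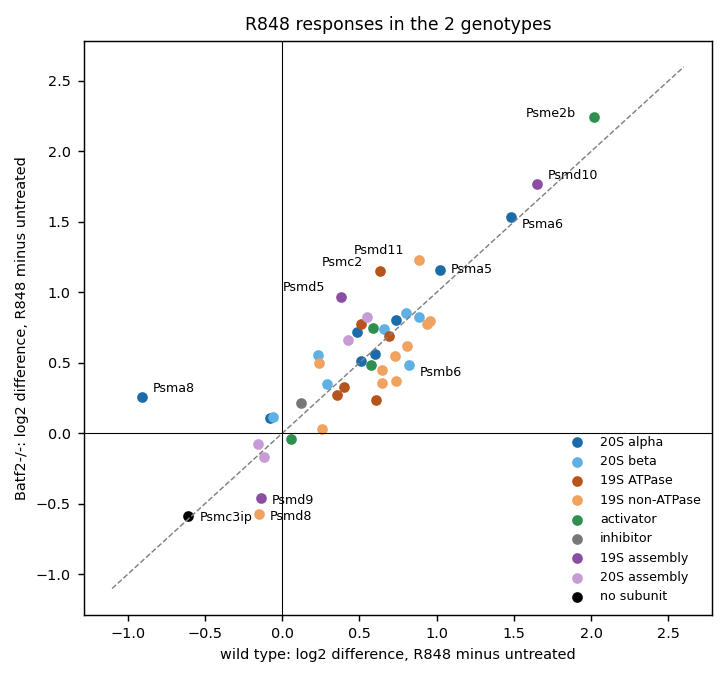
R848 response of each proteasome gene in Batf2-/- cells (vertical axis) against wild-type cells (horizontal axis), both as log2 differences of R848 minus untreated, coloured by role; the dashed line marks equal responses. Points lie along the line (r = 0.86), with Psma8 far above it and Psmd8 below it.

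Between genotypes the members, like most genes measured, differed by less than 2-fold. With R848, none was 2-fold higher in Batf2-/- cells than in wild-type cells and none 2-fold lower, where 2.37% and 1.78% of all genes were. Without treatment the counts were also 0 and 0, where 1.98% and 2.54% of all genes were. Of the genes at or above the 75th percentile, 0.742% and 1.02% were with R848, and 0.491% and 1.63% untreated. At shares this low, counts of 0 among 45 genes do not set the members apart. The median log2 difference, Batf2-/- minus wild type, was 0.03 with R848 and 0.02 untreated, beside 0.04 and 0.05 over all genes. Higher in Batf2-/- cells at any size were 29 of 45 genes with R848 and 24 untreated, against 55.1% and 56.7% of all genes, shares close to those of the whole array. The granulocyte precursor and basophil marker sums given above were lower in Batf2-/- cells on the same arrays.

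With R848, the highest differences (Batf2-/- minus wild type) were those of Psmd5 at 0.50, Psmc2 at 0.42, Psme4 at 0.30, Psmd11 at 0.28 and Psma4 at 0.26 on the log2 scale. For Psma4 the 3 dimmer probes were between -0.02 and -0.01. The lowest were Psmc3ip at -0.63, Psmd3 at -0.36, Psma6 at -0.27, Psme1 at -0.16 and Psma3 at -0.16. At 1.5-fold, none was higher (8.72% of all genes) and only Psmc3ip, no subunit, was lower (5.36%). Of the genes at or above the 75th percentile, 4.73% were higher and 3.49% lower at that size. In untreated cells Psmd8 (0.57), Psmb6 (0.44), Psme4 (0.39), Psmd13 (0.37) and Psmd6 (0.27) were highest, and Psma8 (-0.92), Psmc3ip (-0.65), Psme1 (-0.32), Psma6 (-0.32) and Psmb2 (-0.28) lowest. Past 1.5-fold were 0 higher (8.22% of all genes) and 2 lower (6.84%), Psma8 and Psmc3ip. For the genes at or above the 75th percentile these shares were 3.28% and 4.5%. Psme4 was thus among the 5 highest and Psma6, Psme1 and Psmc3ip among the 5 lowest under both conditions. They were picked out from these same lists, and the dimmest Psme4 probe was at -0.21 with R848.

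The difference of the R848 responses, Batf2-/- minus wild type, had a median of 0.05 over the members and -0.01 over all genes. It was at least 2-fold higher for 1 member, Psma8 (3.53% of all genes), and at least 2-fold lower for none (2.36%). At 1.5-fold, 2 were higher (10% of all genes), Psma8 at 1.16 and Psmd5 at 0.59, and none was lower (7.93%). Of the genes at or above the 75th percentile, 5.11% were higher and 2.71% lower at 1.5-fold. Psmc2 (0.52), Psmd11 (0.35) and Psmb2 (0.32) followed at the high end, and Psmd8 (-0.43), Psmc6 (-0.37), Psmd6 (-0.36), Psmb6 (-0.34) and Psmd9 (-0.32) stood at the low end.

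Core and cap leaned apart in that difference. The response was larger in Batf2-/- cells for 12 of 15 core genes and for 4 of 17 cap genes, where 48.6% of all genes had the larger response there, and the medians were 0.07 for the core and -0.16 for the cap. The gap lay on the untreated arrays, on which the Batf2-/- minus wild-type median was -0.13 for the core and 0.13 for the cap, while with R848 it was 0.03 and 0.01. The lean depended on which probe stood for a gene. With the mean over all probes of a gene, 9 of 15 core genes and 7 of 17 cap genes had the larger response in Batf2-/- cells, with medians of 0.05 and -0.02. Over single probes the counts were 15 of 25 for the core and 11 of 36 for the cap. All these values share the same 4 arrays.

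**Figure D5:**
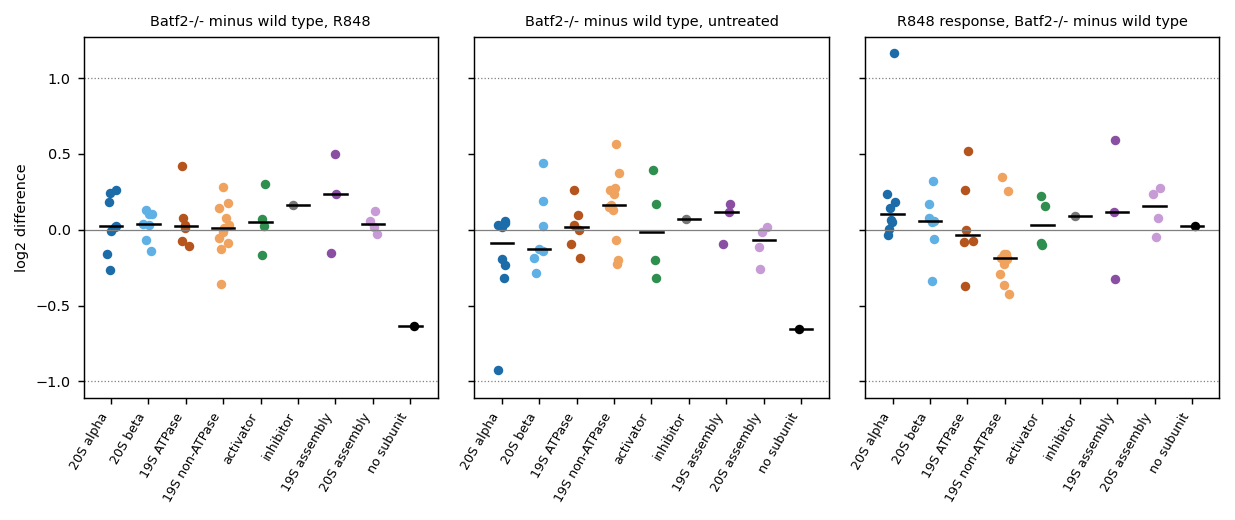
Batf2-/- minus wild type for each proteasome gene (points, log2 difference, vertical axis) by role (horizontal axis), with R848 (left), untreated (centre) and for the R848 response itself (right); bars are medians and dotted lines mark 2-fold. Core and cap medians are 0.03 and 0.01 on the left and -0.13 and 0.13 in the centre, and Psma8 is the only point past 2-fold.

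Probes of 1 gene did not always run alike, which bounds how closely single values can be read. Of the 27 genes with several probes, all probes of the gene had the same sign of the R848 difference for 18 in Batf2-/- cells and 21 in wild-type cells. The signs differed with a gap of at least 0.5 for Psmd1, Psmd4, Psmd14 and Psmg2 in both genotypes, and by the same criterion for Psmc3ip, Psme4 and Psmf1 in Batf2-/- cells and for Psmg3 in wild-type cells. In Psmd4 the brightest probe gave 0.55 and 0.73 and the dimmest -0.34 and -0.43 in Batf2-/- and wild-type cells. Psmd14 gave 0.62 and 0.81 on its brightest probe and -0.25 and -0.02 on its dimmest. Psmd1 ranged over 4 probes between -0.15 and 0.60 in Batf2-/- cells and between -0.06 and 0.65 in wild-type cells.

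The core chaperone Psmg2 gave -0.17 and -0.12 on its brightest probe and 0.45 and 0.46 on its dimmest. For Psmg3 these were 0.83 and 0.55, and 0.18 and -0.22. The dimmest of 4 Psme4 probes had -0.83 in Batf2-/- cells and 0.02 in wild-type cells, where the other 3 were above 0. For Psmf1 the dimmest of 3 probes had -0.35 and -0.10, and for Psmc3ip the second probe had 0.15 and -0.39. In Psmd1, Psmd4, Psmd14, Psme4 and Psmf1 the probe below 0 in Batf2-/- cells was the dimmest of its gene.

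Between genotypes, probe signs parted with such a gap in untreated cells for Psmc2, Psmc6 and Psmd13, and with R848 for Psmc3ip, Psmd1, Psmd4, Psmd14, Psme4 and Psmf1. Psmc6 showed it most plainly, with 2 probes of similar brightness that gave 0.26 and -0.62 in untreated cells. Its difference of responses was -0.37 on one and 0.47 on the other. For the difference of responses, 14 of the 27 genes had probes of both signs, and Psmc2, Psmc6, Psmd1, Psmd13, Psme4 and Psmf1 with a gap of at least 0.5.

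Proteasome partners outside the member list responded on a similar scale. These were 21 genes for an assembly factor, cap-associated enzymes and shuttles, ubiquitin-related factors, and the transcription factors known to drive proteasome genes. After R848, 16 of 21 were higher in Batf2-/- cells and 16 in wild-type cells, where 47.1% and 49.1% of all genes were, and the medians were 0.52 and 0.58 on the log2 scale. At least 2-fold higher were 4 in Batf2-/- cells and 0 in wild-type cells, where 7.27% and 5.84% of all genes were. In the other direction 1 gene, Ddi2, the protease that activates NFE2L1, was at least 2-fold lower in both, at 2.3-fold and 2.57-fold, where 5.64% and 6.4% of all genes were. The 4 were AI314180, an older symbol of Ecpas, which encodes the proteasome adaptor ECM29, at 3.9-fold, the cap's ubiquitin receptor Adrm1 at 2.19-fold, Nfe2l2 at 2.15-fold and Nfe2l1 at 2.1-fold. In wild-type cells the same 4 genes were 1.93-fold, 1.996-fold, 1.7-fold and 1.98-fold higher. Pomp, the maturation factor of the core, was 1.47-fold higher in Batf2-/- cells and 1.37-fold in wild-type cells.

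The genes beside the members on the chromosome were also looked at. A RefSeq neighbour of Psma6 on chromosome 12 is Nfkbia, the inhibitor of nuclear factor kappa B that is induced by that factor, and Nfkbia was 8.39-fold higher after R848 in Batf2-/- cells and 7.16-fold in wild-type cells. Of 41 members with a measured neighbouring gene, 4 (Psma6, Psmg1, Psmd14 and Psmc3) had a neighbour at least 2-fold higher in both genotypes, where 7.21% of 14774 genes did. In Batf2-/- and wild-type cells, Ets2, beside Psmg1, was 7.07-fold and 6.71-fold higher, and Psmg1 itself 1.58-fold and 1.34-fold. Tank, beside Psmd14, was 2.3-fold and 2.43-fold higher, and Psmd14 1.54-fold and 1.75-fold. Slc39a13, beside Psmc3, was 2.71-fold and 2.4-fold higher, and Psmc3 1.21-fold and 1.28-fold. Whether a neighbour bears on the response of a member was not tested. The measured neighbours of Psma5 (Sort1) and Psmd10 (Atg4a) were not 2-fold higher in both. Psme2b is counted among the 41 at its own locus, although its signal cannot be assigned to that copy.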

How the data were processed

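RNA of 4 samples, 1 per group, was hybridised to 1-colour Agilent arrays, and groups come from the labels. Agilent Feature Extraction (version 11.5.1.1, per the file headers) gave the processed signal, a linear intensity from which it had subtracted background and a spatial trend, without scaling arrays to each other. A table from the authors, deposited for the whole series, held the same intensity multiplied by a constant for each array, to within 1% at all spots checked. What its scale refers to is unknown. It supplied the gene symbols and served as an alternative, and its log2 ratios, deposited by the authors, were not used.

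Log2 of the processed signal was taken, spots marked as non-uniform or population outliers (between 70 and 115 per array) were left out, spots of a probe were averaged, and each array's 75th percentile over the 56605 probes that are not controls was subtracted. No spot was saturated. Between 60.6% and 71.4% of probes were well above background. A probe needed this on at least 1 compared array, at a share of 0.5 or more of its spots. A value not above background was raised to the lowest value of the probes that were on that array, or kept if it was higher. The brightest probe stood for a gene. Batf2, marker genes and neighbours were named through RefSeq accessions (10228 probes). The grid is annotated to another build, so RefSeq gave names, neighbour order and promoters only.

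Calls are 2-fold and 1.5-fold sizes, without a test. Named genes were Psmb5, Psmb6, Psmb7, the Psme genes and Psmf1, and in each comparison the 5 highest and 5 lowest, those past 1.5-fold and those with discordant probes; the rest are given with their class. Members, lists and comparisons were chosen with earlier results of these data known. Alternatives were centring, quantile normalization, normexp (limma 3.58.1, offset 50, on the median spot and background signals, since these files hold no mean spot signal), the authors' table, stricter and no filters, means over probes, and leaving out bright areas. Python 3.11.15, numpy 2.4.6 and pandas 2.3.3 were used.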

Additional observations from a re-analysis of the deposited data

Results flagged for a closer look

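Psma1 and Psma8 had R848 responses of opposite sign in the 2 genotypes, for Psma1 hardly beyond the spread between spots. For Psma8 the R848 response was 1.16 higher in Batf2-/- cells than in wild-type cells on the log2 scale, with 0.26 in Batf2-/- cells and -0.91 in wild-type cells. For Psma1 the response was 0.18 higher in Batf2-/- cells, with 0.11 and -0.08. With centring on the array median the wild-type value of Psma1 was above 0, so the signs no longer differed. Each genotype has 1 pair of arrays, so neither difference was tested.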

How the results depend on the processing

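The broad R848 response of the proteasome genes kept its direction under all alternatives run, and its size moved. The median log2 difference of the members in Batf2-/- cells was 0.69 with centring on the array median, 0.42 with quantile normalization and 0.44 with normexp, beside 0.55. In wild-type cells it was 0.73, 0.48 and 0.44, and 0.38 with the mean over the probes of a gene, beside 0.57. Centring on the array median also moved the median over all genes, to 0.11 in Batf2-/- cells and 0.14 in wild-type cells. Relative to all genes, the members' median stayed between 0.45 and 0.59 in Batf2-/- cells and between 0.41 and 0.59 in wild-type cells over the alternatives. The number of members at least 2-fold higher in wild-type cells was 8 with centring on the array median, beside 4. Core minus cap was 0.17 in the Batf2-/- response with normexp (beside 0.07), 0.11 in the wild-type response with the mean over probes (beside -0.04) and 0.069 in the difference of responses with the mean over probes (beside 0.23).

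Psma8, the only member 2-fold apart in the difference of responses, was at 0.72 with normexp, which left 0 members past 2-fold there. Psma5 in wild-type cells was at 0.91 with quantile normalization and with normexp. With the mean over probes Psmc2 was at 0.78 in Batf2-/- cells. Signs turned beyond the spread between spots in a few small differences. With the mean over probes these were Psmg2 (0.28 in the Batf2-/- response and 0.17 in the wild-type response), Psmf1 (-0.10 in the wild-type response) and, for Batf2-/- minus wild type, Psmd1 with R848 (0.12), Psmc2 untreated (0.23) and Psmc6 untreated (-0.18). Psmd9 with R848 was at 0.080 with normexp, and Psma1 in the wild-type response at 0.078 with centring on the array median. The cause was not tested. Marked bright areas touched only Psma2 and Psmb3 among the members.

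No paired analysis was possible because the labels number no replicates and each group is 1 array, and leaving out a replicate would leave a group empty. A model with genotype and treatment as additive terms, which takes the difference of responses as its error, was not run. The number of arrays limits the precision, and the dim probes of Psmf1, Psma8, Psmd9 and Psmc3ip lie closest to background.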
